A study of Homo sapiens with 6 samples.

Results

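The 200 most abundant long noncoding RNAs (lncRNAs) of SCC-9 cells, an established line from a human squamous carcinoma of the tongue, were compared between cells that received an siRNA against exon 7 of MKI67 (siE7, the libraries titled siKi) and cells that received a nonspecific siRNA (siNC, the libraries titled NS). Of the 25349 rows in the deposited count file, 5935 were typed as lncRNA. For each row the level in a library was its CPM, the count scaled to the same total of counts on genes in every library, and the 200 rows with the highest mean CPM over the 6 libraries were kept. The levels of all 6 libraries therefore chose the members, and the change between siE7 and siNC did not enter the rule except through that mean. Both groups were SCC-9 cells transfected with 10 nM siRNA by Lipofectamine on day 0 and again on day 2, grown with hydrocortisone in the medium, and n was 3 libraries in each. SCC-9 is a single line, the sources name several exon 7 siRNAs without saying which of them made these libraries, and nothing says that the 3 libraries of a group came from separate cultures, so the p-values measure the spread between these libraries, which may be technical.

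lncRNAs are transcripts that are not translated into a known protein. Some act in the nucleus as scaffolds of chromatin or of nuclear bodies, some bind microRNAs or RNA-binding proteins in the cytoplasm, and others matter mainly because their introns carry small nucleolar RNAs (snoRNAs) or because their hairpins are cut into microRNAs. Many start close to the promoter of a coding gene, on its opposite strand. The libraries were made from polyadenylated RNA, which leaves much of MALAT1 and of the long form of NEAT1 uncounted because their mature ends carry no poly(A) tail.

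MKI67, the targeted gene, lay between 1029 and 1077 TMM-scaled CPM in siNC and between 108 and 124 in siE7, 9.24-fold lower (log2 fold change -3.21 ± 0.11 SE, adjusted p = 6.7e-08, edgeR's quasi-likelihood test). The libraries held between 25608192 and 29550264 counts on genes. All 10 squamous epithelial markers checked were above 1 CPM, and 2 of 13 markers of leukocytes, endothelium, fibroblasts and melanocytes were (COL1A1 and COL1A2). Replicate 1 of siE7 stood apart from the other siE7 libraries: the chi-square of their counts per degree of freedom was 61.1 and 72.7 between it and replicates 2 and 3, against 6.22 between those.

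The mean level of a member ran from 599 CPM down to 6.70, with a median of 12.9. 16 members were above 100 CPM and 66 were under 10. The lowest count of any member in any library was 21, so all 200 passed the filter on low counts. At the edge of the selection stood PDCD6IP-DT with 6.78 CPM, RP11-661A12.15 with 6.74 and RP11-416I2.1 with 6.70, and just outside it RP5-1090P18.1 with 6.68, AC093818.1 with 6.67 and RP11-262H14.14 with 6.65. A rule on siNC alone would have kept 181 of the 200. The other 19 were members only because of their level in siE7, so their direction was fixed by the choice, and all 19 were called higher there. Ranking by level per kilobase of exon would have kept 129, since members were long: their median merged exon length was 4154 bases in 5 exon blocks, against 1576 bases in 3 blocks for the other lncRNA rows. Chromosomes 1 and 17 held 21 members each, the most of the 23 chromosomes with a member.

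Short stretches of sequence show 3 properties of members named below, and all come from RefSeq on GRCh38.p14. The first is the start of the snoRNA host lncRNAs. Transcripts of the 5′ terminal oligopyrimidine (TOP) class begin with a C followed by a run of pyrimidines, a feature shared by ribosomal protein mRNAs and by several snoRNA hosts. The 10 bases before and 20 bases from the RefSeq start are printed for 6 hosts, with the pyrimidine run at the start in capitals.
ZFAS1 at chr20:49278632-49278661, plus strand: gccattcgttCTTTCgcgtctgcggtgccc
SNHG32 at chr6:31834906-31834935, plus strand: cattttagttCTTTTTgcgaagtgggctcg
SNHG7 at chr9:136728165-136728194, minus strand: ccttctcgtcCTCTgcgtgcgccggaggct
SNHG12 at chr1:28581854-28581883, minus strand: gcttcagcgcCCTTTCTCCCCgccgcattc
SNHG8 at chr4:118278752-118278781, plus strand: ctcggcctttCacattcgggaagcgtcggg
GAS5 at chr1:173869026-173869055, minus strand: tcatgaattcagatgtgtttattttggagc
A C followed by pyrimidines through the first 4 bases stood at the start of ZFAS1, SNHG32, SNHG7 and SNHG12, which is 4 of the 13 host members with an entry (30.8%). This form of start was found in 5.45% of the 35116 promoters listed by RefSeq. The entry depends on the exact base that RefSeq takes as the start, and SNHG6 and SNHG15 had no entry.

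The second is the relation of CYTOR to MIR4435-2HG, near-identical copies on the 2 arms of chromosome 2. The 300-base windows around their RefSeq starts shared 241 aligned bases and all 241 were identical, with the annotated starts 59 bases apart. The 30 bases around the start of MIR4435-2HG are printed from both copies, with the bases from that start onward in capitals.
CYTOR copy at chr2:87455353-87455382, plus strand: ggaccagtccagctcACAAGTATGAAGAGA
MIR4435-2HG copy at chr2:111495147-111495176, minus strand: ggaccagtccagctcACAAGTATGAAGAGA
How reads that fit both copies were counted is not given in the sources used here, so the counts of either gene may hold reads of the other.

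The third is the microRNA that each of 4 microRNA host members carries, printed with the seed (bases 2 to 8) in capitals. The seeds differ between the 4, and the mature microRNAs themselves were not measured in these libraries.
hsa-miR-22-3p, from MIR22HG, chr17:1713914-1713935, minus strand: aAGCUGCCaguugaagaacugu
hsa-miR-210-3p, from MIR210HG, chr11:568112-568133, minus strand: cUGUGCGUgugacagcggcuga
hsa-miR-205-5p, from MIR205HG, chr1:209432166-209432187, plus strand: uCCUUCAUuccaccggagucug
hsa-miR-4435, from MIR4435-2HG, chr2:111321061-111321082, minus strand: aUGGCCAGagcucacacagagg
The same hsa-miR-4435 sequence is also annotated at chr2:87629764-87629785 on the plus strand, within the span of CYTOR.

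Across the 200 members more lncRNAs were higher with siE7 than lower. At an adjusted p under 0.05 in edgeR's quasi-likelihood test, fitted and adjusted over all 14661 genes tested, 101 members were higher and 18 were lower, and 81 were not called. Over all genes tested the same rule called 18.0% higher and 16.0% lower. Over the 1207 other lncRNAs tested it called 29.3% higher and 4.06% lower. With a log2 fold change beyond 1 as well, 44 members were higher and 6 lower, against 7.38% and 4.84% of all genes tested and 23.9% and 3.31% of the other lncRNAs tested. The median log2 fold change was 0.45 over the members, 0.58 over the other lncRNAs tested, 0.04 over protein-coding genes and 0.08 over all genes tested. Without scaling for composition the medians were 0.62 over the members and 0.25 over all genes tested, a shift of 0.17 for all genes, and the share of higher among the called was 71.2% in place of 52.9% over all genes and 90.8% in place of 84.9% over the members. These are counts per library total, so fewer cells of a type and less RNA per cell cannot be told apart in them. Without the 19 members that entered through siE7, 82 of 181 were higher and 18 lower, with 29 and 6 beyond 1 log2 unit and a median of 0.37.

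Every siE7 library was above every siNC library for 115 members, which is to be read against 24.9% of all genes and 40.8% of the other lncRNAs tested, and below every siNC library for 27, against 22.7% and 7.87%. Without the 19 members that entered through siE7, whose direction was fixed, these were 97 and 27 of 181 (53.6% and 14.9%). With these 19 included, the median log2 ratio of the members to the siNC mean was 0.39 in siE7 replicate 1, 0.51 in replicate 2 and 0.48 in replicate 3. For 29 members siE7 replicates 2 and 3 both lay above, or both below, all siNC libraries and replicate 1 did not, which is 14.5% of the members against 24.0% of all genes and 12.1% of the other lncRNAs tested. Without siE7 replicate 1, 35 members were called lower in place of 18, and 118 were called higher in place of 101. Leaving out any other library moved neither count beyond 1.5 times its value.

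**Figure D1:**
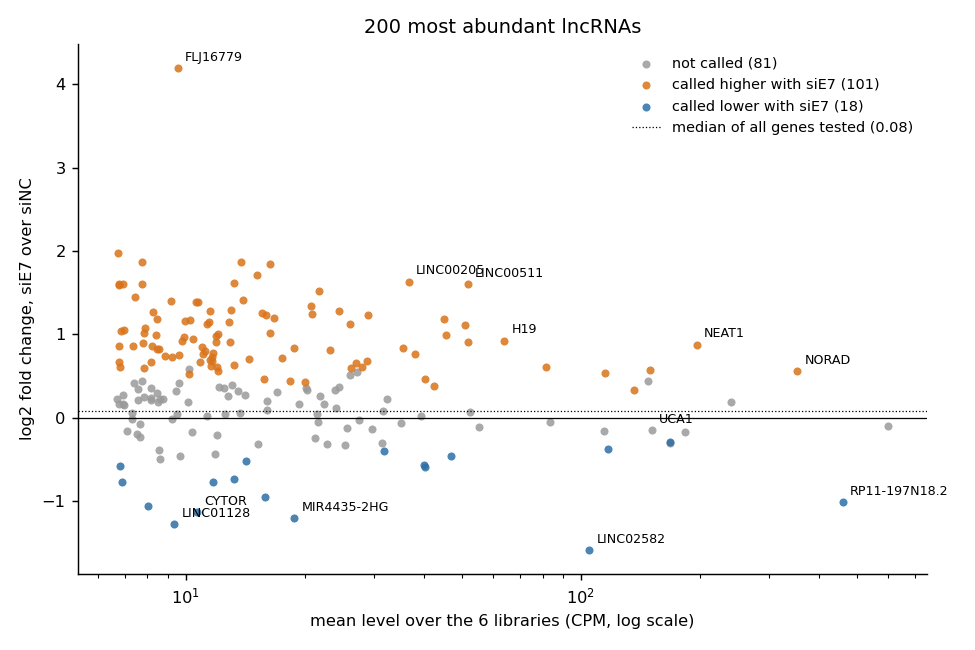
Each point is one of the 200 members, with its mean level over the 6 libraries (CPM, log axis) against its log2 fold change of siE7 over siNC, coloured by the edgeR call. The 101 members called higher lie at all levels, the 18 called lower include LINC02582 and RP11-197N18.2 among the most abundant, and the median of all genes tested is 0.08.

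The members together made up 0.575, 0.591 and 0.573% of all counts on genes in siNC and 0.677, 0.760 and 0.785% in siE7. The groups did not overlap, and the ratio of the summed plain CPM of siE7 over siNC was 1.28. Plain CPM lacks the composition scaling used for the log2 fold changes. Leaving that scaling out raised the log2 fold changes of all genes by a median of 0.17. The ratio of scaled sums was not computed. The plain sums also hold the 19 members that entered through siE7, so part of the rise was fixed by the choice. The ratio without these 19 was not computed. The share of all 200 members in the counts on lncRNAs moved the other way, from 77.2 to 77.6% in siNC to 73.4 to 73.8% in siE7. By rank, the 20 most abundant members had 7 higher and 4 lower with a median log2 fold change of -0.07. The medians of ranks 21 to 50, 51 to 100, 101 to 150 and 151 to 200 were 0.53, 0.38, 0.68 and 0.43, in no order with level. The rank groups also include the 19 members whose direction was fixed in this way.

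Many of the most abundant rows overlap the exons of coding genes in the annotation. In GENCODE release 44, to which 199 of the 200 members were matched, 52 members shared exon bases with a coding gene on the same strand, among them 8 of the 20 most abundant. 69 members shared exon bases with coding genes on the opposite strand only, 49 overlapped another gene without sharing coding exons, and 29 overlapped no gene. The libraries were directional, but whether the counting used strand is not given in the sources used here, so reads of a member and of a gene that overlaps it cannot be told apart on either strand.

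The most abundant row, CH17-66N5.1 on chromosome 15, had 518, 721 and 617 TMM-scaled CPM in siNC and 454, 577 and 700 in siE7. The groups overlapped, and the log2 fold change was -0.10 ± 0.16 (adjusted p = 0.664, edgeR). RP11-120M18.2 had 225, 214 and 228 in siNC and 220, 283 and 256 in siE7 (log2 fold change 0.18, not called with all libraries), beside 0.17 for PRKAR1A, the regulatory subunit of protein kinase A whose exons it shares. CH17-335B8.4 had 183, 185 and 189 in siNC and 158, 155 and 145 in siE7, a fall of 0.29 ± 0.10 on the log2 scale (adjusted p = 0.0495, edgeR), beside -0.32 for ANXA8L1, an annexin. This call sits at the threshold and was lost without composition scaling, under upper-quartile scaling, with either other filter on low counts, and without any 1 library other than siE7 replicate 1. RP11-186B7.4, which shares exons with SENP3-EIF4A1, and RP11-793H13.8, which shares them with PRR13, had log2 fold changes of -0.16 and -0.30 and were not called. Without siE7 replicate 1 both were called, at -0.33 and -0.46, as was RP11-120M18.2 at 0.21. RP11-793H13.8 was also called in DESeq2, and RP11-120M18.2 without composition scaling, at 0.36.

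RP11-197N18.2 was the only one of the 10 most abundant members to change by more than 1 log2 unit. It fell from 602, 662 and 616 TMM-scaled CPM in siNC to 330, 286 and 316 in siE7, with no overlap between the groups. The log2 fold change was -1.01 ± 0.11 (adjusted p = 5.2e-05, edgeR). It shares exon bases with 2 coding genes on its strand, OGFOD2 and ARL6IP4, a protein of splicing speckles. OGFOD2 had 9.28, 10.5 and 10.3 in siNC and 16.3, 13.7 and 11.6 in siE7 (log2 fold change 0.47 ± 0.17, adjusted p = 0.0513, edgeR). ARL6IP4 was counted at 0.243, 0.520 and 0.454 in siNC and 0.911, 0.580 and 0.589 in siE7. How reads that fit more than 1 of these genes were assigned is not given in the sources used here, and their part in the fall of this row was not tested.

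Over the 47 members with a tested coding gene on the same strand, taking the most abundant such gene for each, 36 had the sign of that gene, the median absolute difference between the log2 fold changes was 0.15, and Pearson's r across these pairs was 0.26, where the points share the same 6 libraries and in part the same reads. Of all 52, 13 were called higher and 7 lower (25.0% and 13.5%), and the median log2 fold change was 0.17. The shares over all genes tested were 18.0% and 16.0%, and over all members 50.5% and 9.0%. The members with opposite-strand sharing only had 43 higher and 4 lower (62.3% and 5.80%) and a median of 0.72. Those that overlapped another gene without coding exons had 27 and 3 (55.1% and 6.12%, median 0.61). Those that overlapped no gene had 17 and 4 (58.6% and 13.8%, median 0.66). The 19 members that entered through siE7 were 1, 7, 7 and 4 of these 4 classes, and without them the medians were 0.16, 0.58, 0.39 and 0.43. Leaving out the 52 same-strand members, a choice made after seeing the data, 88 of 148 were higher and 11 lower (59.5% and 7.43%). The median was then 0.65, and the ratio of the summed plain CPM was 1.54.

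**Figure D2:**
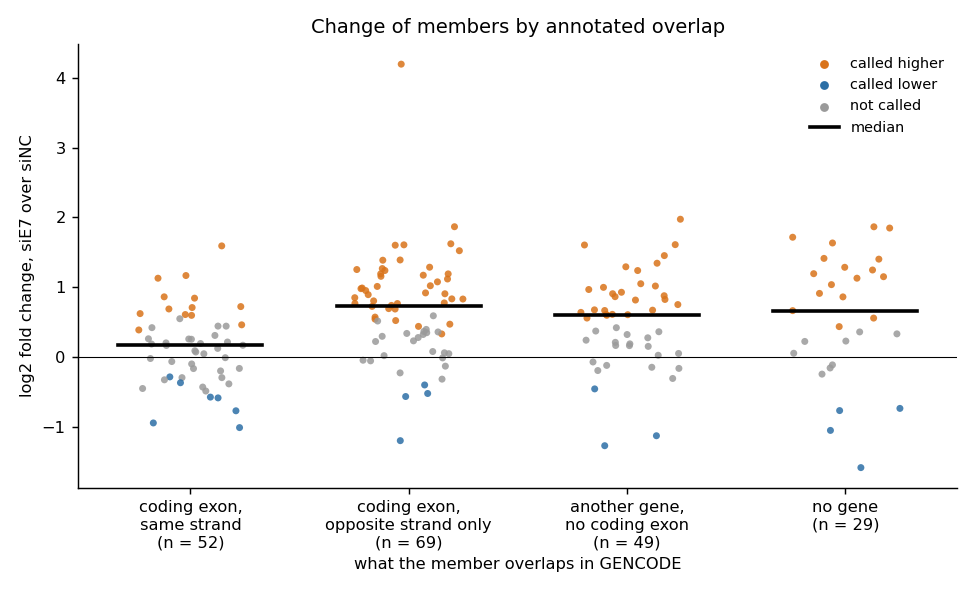
Log2 fold change of siE7 over siNC for 199 members, grouped by what they overlap in GENCODE release 44, with each point a member coloured by its call and the bar the median of the class. The 52 members that share exon bases with a coding gene on the same strand centre on 0.17, and the other 3 classes centre on 0.72, 0.61 and 0.66.

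Among the well-studied lncRNAs, 9 were members, 6 of them were called higher and 1 lower, against 5 and 1 of 8 without JPX, which was a member only through its level in siE7. The shares higher and lower were 50.5% and 9.0% over all members, and 18.0% and 16.0% over all genes tested. Of all 18 tested rows of the list 9 were higher and 1 lower. NORAD, a cytoplasmic RNA that binds the Pumilio proteins and overlaps no annotated gene, had 306, 271 and 266 TMM-scaled CPM in siNC and 313, 463 and 463 in siE7. All siE7 libraries were above all siNC libraries, though replicate 1 of siE7 barely so. It rose by 0.56 ± 0.15 on the log2 scale (adjusted p = 0.015, edgeR), and the call was lost without siE7 replicate 2, siNC replicate 2 or siNC replicate 3. NEAT1, the scaffold of nuclear paraspeckles, rose from 138, 142 and 126 to 185, 270 and 290, a log2 fold change of 0.88 ± 0.16 (adjusted p = 0.0015, edgeR). MALAT1, its neighbour on chromosome 11 and a component of nuclear speckles, had 71.7, 61.6 and 57.6 in siNC and 70.6, 108 and 112 in siE7. Here the groups overlapped, because siE7 replicate 1 lay within the siNC values; the log2 fold change was 0.61 ± 0.17 (adjusted p = 0.0171, edgeR), and the call was lost without siE7 replicate 2 or 3 or siNC replicate 2 or 3.

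H19, the imprinted RNA that is the precursor of miR-675, rose in all 3 siE7 libraries, from 45.9, 46.4 and 37.7 to 92.8, 77.7 and 76.6 TMM-scaled CPM (log2 fold change 0.93 ± 0.13, adjusted p = 3.4e-04, edgeR). PVT1, a neighbour of MYC, rose from 9.56, 9.93 and 9.50 to 13.9, 13.9 and 14.8, and its call was lost without any 1 of the siNC libraries. JPX, an activator in X inactivation, was called higher (log2 fold change 0.61 ± 0.19), a direction that its selection fixed and a call lost without any 1 library other than siE7 replicate 1. OIP5-AS1 and PSMA3-AS1 were not called: in both, siE7 replicate 1 was below all siNC libraries and replicate 3 above them. OIP5-AS1 had 6.71, 12.9 and 13.8 in siE7 against 12.6, 13.5 and 12.3 in siNC, and PSMA3-AS1 had 9.28, 18.7 and 21.2 against 16.4, 17.7 and 12.2. Without siE7 replicate 1, PSMA3-AS1 was called higher, at 0.31.

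The 6 members that fell by more than 1 log2 unit were LINC02582, LINC01128, MIR4435-2HG, CYTOR, SFTA1P and RP11-197N18.2. LINC02582, on chromosome 18 from 73324941 to 73349879 of GRCh38 and overlapping no annotated gene, had 168, 160 and 159 TMM-scaled CPM in siNC and 52.8, 55.6 and 53.5 in siE7. The groups were far apart and the libraries within each were close. It fell by 1.59 ± 0.11 on the log2 scale (adjusted p = 2.5e-06, edgeR), 3.0-fold lower, and from rank 8 in siNC it stood at rank 16 over all libraries. MIR4435-2HG fell from 22.8, 28.9 and 28.7 to 11.7, 11.7 and 11.6 (log2 fold change -1.20 ± 0.15, adjusted p = 1.3e-04, edgeR). CYTOR, an RNA described in the cytoskeleton and in epidermal growth factor signalling, fell from 13.6, 16.4 and 14.96 to 5.23, 7.21 and 8.08 (log2 fold change -1.13 ± 0.19, adjusted p = 0.00101, edgeR). As the sequences of these copies show, their reads may be shared. If each shared read was counted at only 1 copy, the sum of both does not depend on how they were split. Whether this was so is not given in the sources used here. The sum was 36.3, 45.2 and 43.7 in siNC and 16.9, 18.9 and 19.7 in siE7, a log2 ratio of means of -1.17, with no test. LINC01128 fell by 1.27 ± 0.18 and SFTA1P, a surfactant-associated pseudogene transcript, by 1.05 ± 0.19 on the log2 scale.

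**Figure D3:**
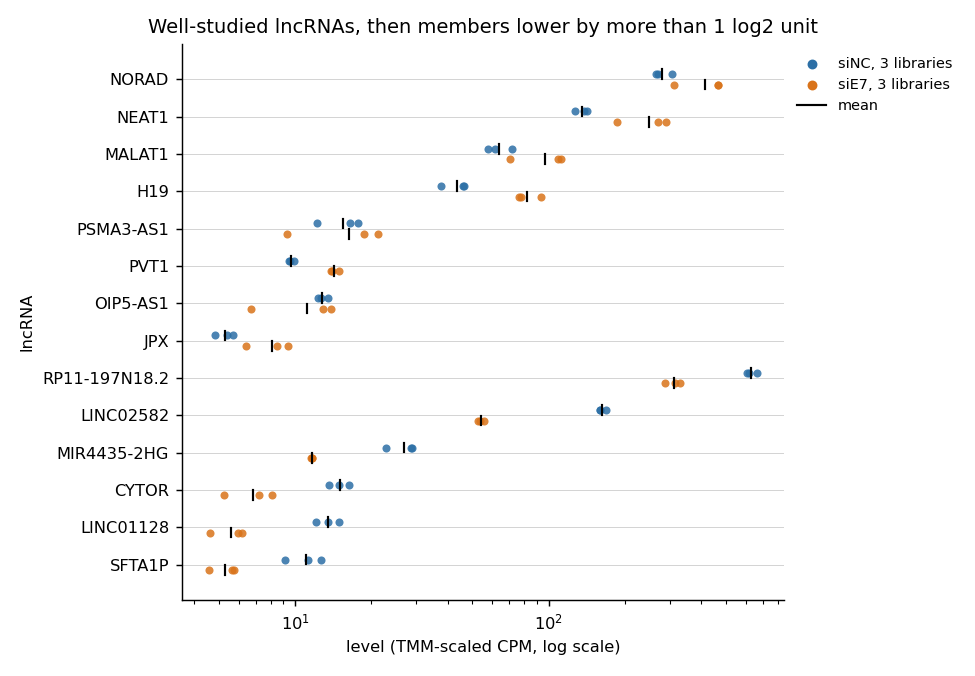
Level of 14 members in each library (TMM-scaled CPM, log axis), siNC above siE7 in each pair of lines, with the mean as a black tick. The 8 upper rows are well-studied lncRNAs and the 6 lower rows are the members that fell by more than 1 log2 unit, in which no siE7 library reached a siNC library. In MALAT1, PSMA3-AS1 and OIP5-AS1 the groups overlap.

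FLJ16779 had the largest change of the members. It lies on chromosome 20 from 63253978 to 63261615 of GRCh38, shares exon bases with NKAIN4 on the opposite strand, and had 1.01, 1.00 and 0.795 TMM-scaled CPM in siNC and 18.15, 18.01 and 15.4 in siE7. It rose 18.3-fold (log2 fold change 4.20 ± 0.20, adjusted p = 3.0e-07, edgeR). Its rank in siNC alone was 715, so it was a member only through its level in siE7. It was the only member whose log2 fold change was above 2.

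The next members by p were already abundant in siNC. LINC00205 rose from 17.5, 16.2 and 18.4 TMM-scaled CPM to 57.2, 50.8 and 53.8 (log2 fold change 1.63 ± 0.12, adjusted p = 6.0e-06, edgeR). LINC00511, an RNA described as higher in several carcinomas, rose from 27.3, 23.2 and 24.2 to 84.7, 71.9 and 70.6 (log2 fold change 1.60 ± 0.13, adjusted p = 8.3e-06, edgeR). In both the siE7 libraries were about 3 times the siNC libraries, with replicate 1 of siE7 the highest. CTA-29F11.1, which GENCODE names TBC1D22A-DT, rose from 7.13, 6.89 and 6.66 to 27.3, 25.1 and 22.0. RP11-190A12.10, which lies over exons of VSIG8 on the opposite strand, rose from 4.86, 5.605 and 6.70 to 20.4, 20.3 and 21.9. RP1-92O14.3, which GENCODE names CDC20-DT, rose from 6.56, 7.85 and 6.10 to 21.8, 22.6 and 23.0. In these 3 the lowest siE7 library was over 2 times the highest siNC library. GATA2-AS1, SLC9A3-AS1 and GABPB1-IT1 were also among the 10 with the smallest p, with log2 fold changes of 1.24, 1.52 and 1.34.

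Of the snoRNA hosts, 11 of 15 members were called higher and none lower in edgeR's test, and their median log2 fold change was 0.67. Over all members 50.5% were higher, and over all genes tested 18.0%. EPB41L4A-AS1 and SNHG32 were members only through their level in siE7, which fixed their direction, and without them 9 of 13 were higher, with a median of 0.60. These are genes whose introns are processed into snoRNAs, which guide the chemical modification of ribosomal RNA, while the spliced RNA counted here is the by-product or acts on its own. Over all 26 tested rows of the list 18 were higher and none lower. GAS5 had 28.1, 32.0 and 34.4 TMM-scaled CPM in siNC and 68.0, 68.5 and 68.4 in siE7 (log2 fold change 1.12 ± 0.12, adjusted p = 5.4e-05, edgeR). Its siE7 libraries nearly coincided and stood at about 2 times the siNC level. EPB41L4A-AS1 rose from 4.62, 4.40 and 5.15 to 10.9, 12.2 and 11.1, SNHG8 from 6.76, 7.93 and 8.71 to 17.0, 16.6 and 18.6, and SNHG32 from 5.18, 4.52 and 3.71 to 10.2, 9.09 and 8.50, each by more than 1 log2 unit.

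The other 7 hosts called higher changed less, by 0.33 to 0.92 on the log2 scale. SNHG6, the most abundant host, rose from 117, 125 and 113 to 145, 190 and 193 (log2 fold change 0.57 ± 0.13, adjusted p = 0.006, edgeR). ZFAS1 rose from 27.9, 29.3 and 25.4 to 37.7, 49.1 and 53.7 (0.77 ± 0.15), SNHG7 by 0.90 ± 0.17, SNHG21 by 0.92 ± 0.17, SNHG1 by 0.67 ± 0.15 and SNHG3 by 0.60 ± 0.16. The call for SNHG3 was lost without any 1 of the siNC libraries. SNHG29 (0.33 ± 0.10) lost its call without any 1 library other than siE7 replicate 1, and also in DESeq2, with its scaling in edgeR and with no filter on low counts. SNHG12, SNHG15, SNHG16 and SNHG17 were not called, with log2 fold changes of 0.28, 0.02, 0.02 and 0.16, and the sign of SNHG15 and SNHG16 turned under DESeq2's scaling. Without siE7 replicate 1, SNHG15, SNHG16 and SNHG17 were at -0.24, -0.07 and -0.13. Of the 4 hosts whose printed start had the TOP form, ZFAS1, SNHG32 and SNHG7 were called higher and SNHG12 was not. The direction of SNHG32 was fixed by its selection. GAS5 and SNHG8, where the base that RefSeq takes as the start did not give this form, changed by more than 1 log2 unit. Starts at other bases were not examined, and a relation between the TOP form and the change was not tested.

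**Figure D4:**
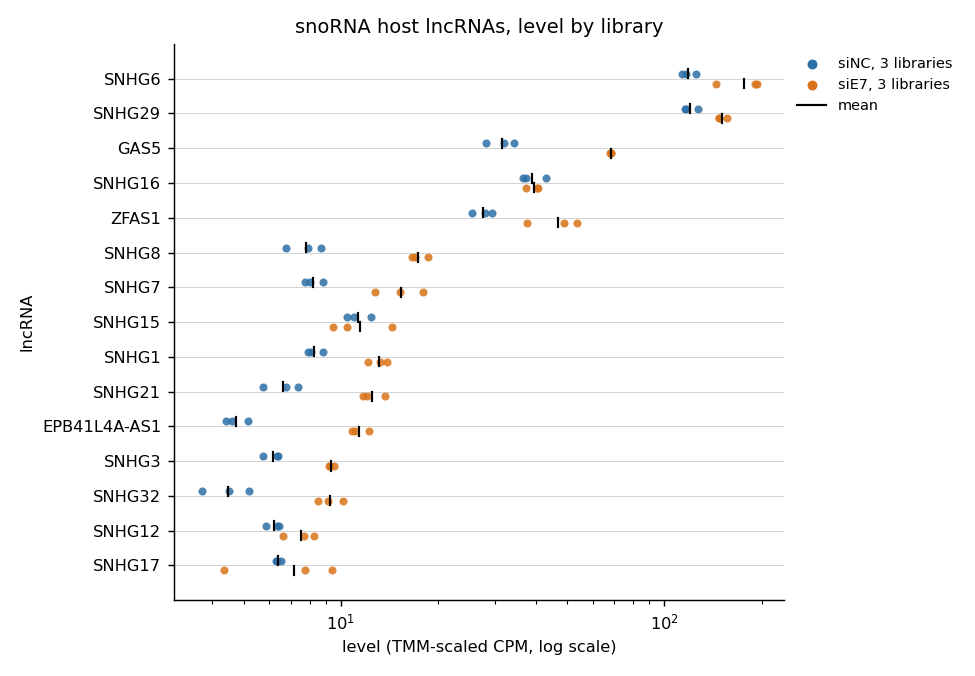
Level of the 15 snoRNA host members in each library (TMM-scaled CPM, log axis), ordered by mean level, with siNC above siE7 in each pair of lines and the mean as a black tick. All siE7 libraries lie above all siNC libraries in 12 of the 15, against 24.9% of all genes tested, and SNHG15, SNHG16 and SNHG17 overlap. EPB41L4A-AS1 and SNHG32 are among the 12 and entered through siE7, which fixed their direction.

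Of the 4 microRNA host members 2 were called higher and 2 lower. MIR22HG, host of hsa-miR-22-3p and a transcript of the stress response, rose from 10.4, 8.93 and 8.48 TMM-scaled CPM to 20.1, 20.8 and 24.7 (log2 fold change 1.24 ± 0.16, adjusted p = 1.7e-04, edgeR). MIR210HG, whose microRNA is a known target of hypoxia-inducible factor, rose from 10.2, 10.8 and 10.8 to 25.1, 18.4 and 20.9 (1.02 ± 0.16). MIR205HG, host of a microRNA typical of squamous epithelium, fell from 51.4, 55.8 and 56.6 to 40.6, 34.5 and 44.1, by 0.46 ± 0.13 on the log2 scale (adjusted p = 0.0161, edgeR). That call was lost without composition scaling and without siE7 replicate 2, siNC replicate 2 or siNC replicate 3. MIR4435-2HG fell as given above. Of all 27 tested rows of the microRNA host list 4 were higher and 5 lower (14.8% and 18.5%), near the shares over all genes tested of 18.0% and 16.0%.

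Of the lncRNAs linked to p53 or stress, 4 were members and all 4 were called higher: GAS5, MIR22HG, NEAT1 and TP53TG1, of which the first 3 also stand in other lists. TP53TG1 was a member only through its level in siE7, which fixed its direction. Without it 3 of 3 were higher, against 50.5% of all members and 18.0% of all genes tested. All 6 tested rows of this list were higher. TP53TG1 rose from 4.98, 5.32 and 5.11 TMM-scaled CPM to 11.3, 9.67 and 7.10 (log2 fold change 0.86 ± 0.20, adjusted p = 0.00669, edgeR). Of the squamous epithelial lncRNAs, UCA1 and PICSAR were not called and MIR205HG was lower. Of all 4 tested rows of this list, 0 were higher and 2 lower. UCA1, first described in bladder carcinoma, had 156, 152 and 171 in siNC and 165, 141 and 127 in siE7, so the groups overlapped, and PICSAR had 21.8, 23.5 and 24.0 against 19.5, 20.3 and 18.6. Without siE7 replicate 1 both were called lower, at -0.32 and -0.31. Of the invasion list, 5 were members: CYTOR and MIR4435-2HG were lower, PVT1 was higher, and UCA1 and SNHG12 were not called. Its 14 tested rows had 4 higher and 4 lower.

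By name, 23 of 44 antisense members were called higher and 4 lower. Of 13 divergent members (suffix DT, which share a promoter region with a coding gene) 9 were higher and 1 lower. Of these, 5 antisense and 3 divergent members entered through siE7, and without them 18 of 39 and 6 of 10 were higher. The 68 members with a clone name had 22 higher and 7 lower, and 36 of them shared same-strand coding exons. Of 19 members named LINC 8 were higher and 2 lower. The shares to read these against were 50.5% higher and 9.0% lower over all members, and 18.0% and 16.0% over all genes tested. Without the 19 members that entered through siE7 the shares over the members were 45.3% and 9.94%.

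The members named after a coding gene were set beside that gene. Of 51 pairs of a member and a tested coding gene from its name, 29 lncRNAs were called higher and 5 lower, whereas 7 pairs had a coding gene that was higher (13.7%) and 14 one that was lower (27.5%), against 16.5% and 17.8% of all protein-coding genes tested. In 7 pairs the lncRNA entered through siE7, and without these 22 of 44 lncRNAs were higher. The median log2 fold change was 0.67 for the lncRNAs and 0.03 for the coding genes. The sign was the same in 36 pairs (70.6%), and Pearson's r across the pairs was 0.34, with the points sharing 6 libraries and, in the 39 pairs whose spans overlap, possibly reads. Both were called higher in 5 pairs, GATA2-AS1, C1RL-AS1, MSC-AS1, A1BG-AS1 and MZF1-AS1, and both lower in 4, SPINT1-AS1, PINK1-AS, SERTAD4-AS1 and LHX1-DT.

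In 5 pairs the lncRNA was higher and the coding gene lower: ARRDC1-AS1, CEBPA-DT, LY6E-DT, MIF4GD-DT and MRPL20-AS1. CEBPA-DT was a member only through its level in siE7, so its direction was fixed by the selection, as was that of MZF1-AS1 above. ARRDC1-AS1 rose from 6.28, 6.57 and 6.82 TMM-scaled CPM to 17.7, 15.4 and 14.9 (log2 fold change 1.29 ± 0.16), while ARRDC1, an arrestin-domain protein, went from 38.0, 41.0 and 37.4 to 19.03, 12.3 and 16.8 (log2 fold change -1.27). CEBPA-DT rose from 4.21, 2.40 and 3.18 to 12.7, 9.13 and 8.11 (1.61 ± 0.25), while CEBPA, a transcription factor of epithelial differentiation, went from 5.71, 7.01 and 7.01 to 3.78, 2.83 and 3.43 (-0.97). LY6E-DT rose from 9.15, 8.49 and 9.47 to 26.6, 19.96 and 18.02 (1.25 ± 0.17), while LY6E, a membrane protein, went from 179, 175 and 156 to 153, 109 and 117 (-0.43). In each of these the siE7 and siNC libraries of both partners did not overlap. No pair had a lower lncRNA and a higher coding gene.

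Members that the table lists under another name but that GENCODE release 44 names after a coding gene gave 9 further pairs. CDC20, an activator of the anaphase-promoting complex, had a log2 fold change of -0.69 ± 0.15 (adjusted p = 0.00467, edgeR) beside 1.72 for its divergent partner RP1-92O14.3. EMSY had -0.90 beside 0.91 for RP11-111M22.3, and SLC12A2, an ion cotransporter, had -0.93 beside 0.44 for LINC01184. GJD3, a gap junction protein, was higher by 2.56 ± 0.55 beside 1.19 for CTD-2267D19.3, though it lay between 0.076 and 0.203 TMM-scaled CPM in siNC, and IRX2, a homeobox factor, by 0.51 ± 0.13 beside 0.43 for C5orf38. The coding genes of the other 4, TBC1D22A (0.17 beside 1.85), GATD1, CD63 and CBLL1, were not called.

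**Figure D5:**
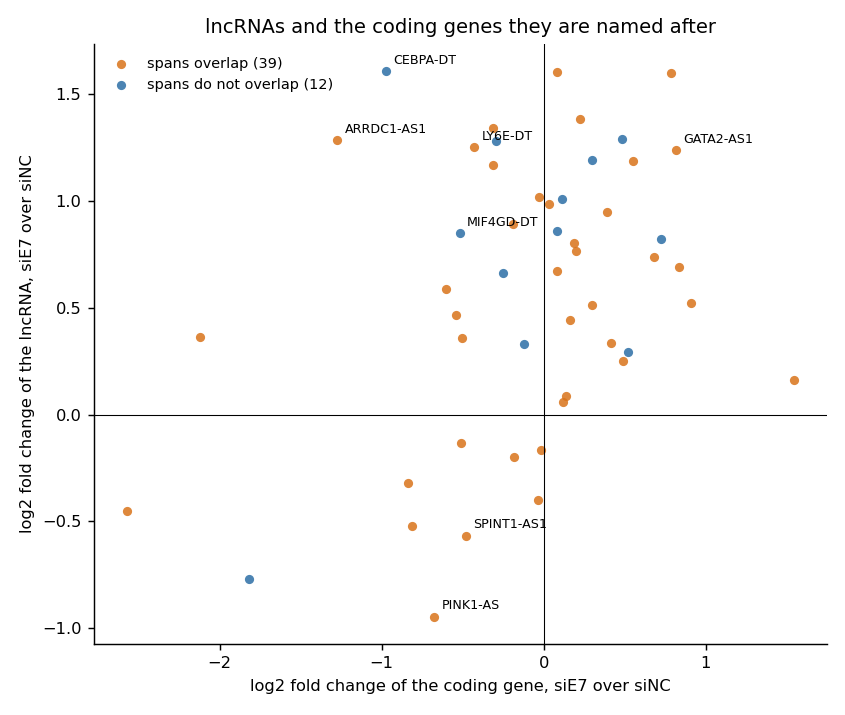
Log2 fold change of siE7 over siNC for 51 members against that of the coding gene in their name, with pairs whose spans overlap in orange (39) and those whose spans do not in blue (12). Most lncRNAs lie above 0, the coding genes lie on both sides of 0, and the upper left holds ARRDC1-AS1, CEBPA-DT and LY6E-DT.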

How the data were processed

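The authors made directional libraries of polyadenylated RNA from TRIzol extracts and sequenced them as paired 150-base reads on a NovaSeq instrument. The deposited table holds whole-number counts per gene and library, not normalized, with a gene type for each row. The submitters' processing notes name HISAT2, DESeq2 and GRCh38 without their roles; the counting tool, annotation release and strand setting are not given in the sources used here. Counts on genes ran from 25608192 to 29550264 per library.

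Genes that passed filterByExpr were fitted with edgeR 4.0.16 in R 4.3.3 (TMM scaling, robust glmQLFit, glmQLFTest, no covariate), siE7 against siNC, with Benjamini-Hochberg adjustment over all 14661 genes tested. A gene was called at an adjusted p under 0.05. The SE is the log2 fold change divided by the square root of F. Levels by library are TMM-scaled CPM, whereas the rule used plain CPM. An exact permutation test of 3 against 3 cannot go below 0.1 and was not used. Alternatives were DESeq2 1.42.0, other scalings and filters, a replicate block, leaving out each library and other ways to choose members. The script was tested on simulated data. Replicate numbers showed no pairing of the samples.

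Members were matched by gene ID to GENCODE release 44, and 104 of the 200 (52.0%) had a RefSeq promoter, so a motif count over members was void. The members and gene lists were chosen with earlier results of these data known. Genes were named by a rule: the 10 members with the highest mean CPM, the 10 members with the smallest p beyond 1 log2 unit in each direction, the members of the lists, those at the edge of the selection and the name pairs.
Pairs sharing exons, pairs named by GENCODE and single examples were added after their values were seen. Some named genes are not reported here.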

Additional observations from a re-analysis of the deposited data

How the results depend on the processing

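Leaving out each library in turn gave 80 to 118 members higher (101 with all) and 12 to 35 lower (18). Beyond 1 log2 unit, 43 to 45 were higher (44) and 4 to 8 lower (6). The ratio of summed plain CPM was 1.24 to 1.33 (1.28). The 35 came without siE7 replicate 1, where 4343 of all genes were higher and 4422 lower in place of 2639 and 2351. The fit with the replicate number as a block called 97 members higher and 17 lower. Of the named members CH17-335B8.4 and SNHG29 were not called in it, and no other call of a named member changed. The numbers showed no pairing of the samples. The deviations of log2 CPM from the group means correlated at -0.04, -0.02 and -0.05 between same-numbered libraries. Such values cannot show whether the cultures were paired.

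Without composition scaling 3 members were lower by more than 1 log2 unit, the median was 0.62 and 4030 and 1632 of all genes were called. The 200 highest in siNC alone gave 29 higher by more than 1 log2 unit and a median of 0.33, and the 181 members also on that list, a choice made after seeing the data, gave 29 and 0.37. Only the 29 members that overlap no other gene gave 17 higher, 4 lower, 12 and 2 beyond 1 log2 unit and a median of 0.66, where fewer members were counted by construction. Without same-strand exon sharing, also chosen after seeing the data, 11 were lower, the median was 0.65 and the ratio 1.54. The cause of these shifts was not tested.

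Of 845 refits of the 65 named members 774 kept direction and call, 43 lost the call, 8 gained one and 20 turned direction, all in members that were not called. These were CH17-66N5.1 without composition scaling (0.078) and leaving out libraries (-0.26 to 0.016), UCA1 without composition scaling (0.015), SNHG16 under DESeq2 (-0.0381), under its scaling in edgeR (-0.0291) and leaving out libraries (-0.065 to 0.089), and SNHG15 likewise (-0.0285, -0.0197 and -0.24 to 0.14). Leaving out libraries also turned PSMA3-AS1 (-0.14 to 0.31), OIP5-AS1 (-0.39 to 0.0019), SNHG17 (-0.13 to 0.42) and RP11-416I2.1 (-0.024 to 0.34). Counts of 21 or more in every library bound the precision of the least abundant members, and with 3 libraries a group the spread is estimated jointly over genes.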
